A study of Homo sapiens with 12 samples.

Results

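The response of UPCI-SCC-090 cells to JQ1 was read from the 3 libraries of cells treated with JQ1 and the 3 libraries of cells treated with DMSO, chosen by the cell line and the treatment that the columns of the count table name. These are 6 of the 12 libraries of the study, and all genes were taken, of which 13150 of the 20738 in the table had enough counts to be tested. UPCI-SCC-090 is an established HPV+ HNSCC (head and neck squamous cell carcinoma) line, grown in high-glucose DMEM with fetal bovine serum. The cells received either 500 nM JQ1 or 0.1% DMSO as the vehicle, in both cases for 72 h. The other 6 libraries are UM-SCC-047, a second HPV+ HNSCC line, under the same agents, dose and time, and serve here only to show where UPCI-SCC-090 differed. RNA was extracted with a mirVana kit, depleted of ribosomal RNA and made into stranded total RNA libraries without selection of a poly(A) tail. Each group is 1 cell line cultured in plastic dishes, so it holds none of the stroma or immune cells of a tumor. The sources used here do not say whether the 3 libraries of a group were grown as separate cultures, so the p-values cover the variation among these libraries alone, and that variation may be technical.

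JQ1 occupies the acetyl-lysine pocket of the bromodomains of the BET proteins, BRD2 among them, and so displaces them from acetylated chromatin. BET proteins help RNA polymerase II leave its paused state, and genes near large clusters of enhancers are known to be sensitive to their loss. A squamous epithelium divides in its basal layer, which is anchored to a basement membrane of laminin, collagen and perlecan, and matures upward with a change of keratins and surface proteins. Wet mucosa, such as that of the mouth and tonsil, makes KRT4 and KRT13 in its upper layers, whereas KRT6 and KRT16 mark activated or wounded epithelium.

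The total estimated count per library was 22124400 to 30788657. Ribosomal protein mRNAs took 4.57% to 6.25% of the counts with DMSO and 11.4% to 12.2% with JQ1, and mitochondrially encoded RNAs took 2.13% to 2.73% and 1.30% to 2.32%. Genes with at least 10 counts numbered 13108 to 13508 per library with DMSO and 12280 to 12658 with JQ1. Library levels followed the GC content of genes to different degrees, with slopes of −0.78 to 0.70 in log2 CPM per 10 percentage points of GC. The steepest were DMSO replicate 2 (0.70) and JQ1 replicate 3 (−0.78). Of 12 markers of squamous epithelial lines all reached 1 CPM, among them TP63, SFN, PKP1 and CDKN2A, and their summed level was 8857 to 9904 CPM with DMSO and 15255 to 19880 CPM with JQ1. KRT6A alone went from 3561 to 5367 CPM with DMSO to 9525 to 13106 CPM with JQ1, whereas TP63 was at 413 to 980.3 CPM with DMSO and lower in every JQ1 library, at 57.4 to 381 CPM. Of the 12 markers 4 were called higher and 0 lower, with a median log2 fold change of 0.03. TP63 thus did not pass the test, although its groups did not overlap, which held for 44.6% of all genes tested. KRT5 and KRT14, the defining pair of basal keratinocytes, were low here, at no more than 10.09 and 1.87 CPM in any library. Of 9 fibroblast markers only COL1A1 and PDGFRA reached 1 CPM, LUM, THY1 and FAP were at 0 in all 6 libraries, and the summed level was 21.8 to 30.0 CPM with DMSO and 2.91 to 4.70 CPM with JQ1. Summed endothelial markers were at 2.40 to 2.52 and 0.41 to 0.57 CPM, leukocyte markers at 9.77 to 13.2 and 7.04 to 10.98 CPM, and melanocyte markers at 4.58 to 14.8 and 3.61 to 16.3 CPM. Muscle markers did not exceed 0.17 CPM. LYZ was at or under 0.25 CPM, and HLA-DRA, CD3D and MS4A1 were at 0. The part of other cells in the results was not tested beyond these levels.

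The promoters of 5 genes show the kinds of start sites among genes that moved. Each is the reference sequence in RefSeq on GRCh38.p14, 300 bases long and ending just after the annotated start, in the direction of transcription. Capitals mark the motifs that were searched on both strands: the E-box CACGTG, the CCAAT box CCAAT, the TATA box TATAAA, the AP-1 sites TGAGTCA and TGACTCA, the CHR of cell cycle genes TTTGAA, and the E2F sites TTTCGCGC and TTTGGCGC. Where TTTATA and TATAAA overlap, the capitals run on. ARRDC4 (chr15:97960453-97960752, plus strand) and CRYBA2 (chr2:218993373-218993672, minus strand) are shown for the steep rises of their mRNAs. H2AC11 (chr6:27132793-27133092, plus strand) stands for the histone genes, PLK1 (chr16:23678639-23678938, plus strand) for the mitotic genes and COL4A1 (chr13:110307108-110307407, minus strand) for the basement membrane genes.
ARRDC4: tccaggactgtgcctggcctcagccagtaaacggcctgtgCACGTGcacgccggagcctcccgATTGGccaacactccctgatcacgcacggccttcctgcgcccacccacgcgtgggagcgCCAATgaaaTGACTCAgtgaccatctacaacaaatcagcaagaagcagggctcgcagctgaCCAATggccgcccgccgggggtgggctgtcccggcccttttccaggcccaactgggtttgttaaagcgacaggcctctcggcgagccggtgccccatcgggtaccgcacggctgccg
CRYBA2: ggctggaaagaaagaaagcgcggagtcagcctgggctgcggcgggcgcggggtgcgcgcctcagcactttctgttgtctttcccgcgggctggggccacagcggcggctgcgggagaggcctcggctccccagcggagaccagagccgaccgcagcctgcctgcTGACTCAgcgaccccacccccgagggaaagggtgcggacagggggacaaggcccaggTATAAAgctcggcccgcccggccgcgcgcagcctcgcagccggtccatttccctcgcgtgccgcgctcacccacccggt
H2AC11: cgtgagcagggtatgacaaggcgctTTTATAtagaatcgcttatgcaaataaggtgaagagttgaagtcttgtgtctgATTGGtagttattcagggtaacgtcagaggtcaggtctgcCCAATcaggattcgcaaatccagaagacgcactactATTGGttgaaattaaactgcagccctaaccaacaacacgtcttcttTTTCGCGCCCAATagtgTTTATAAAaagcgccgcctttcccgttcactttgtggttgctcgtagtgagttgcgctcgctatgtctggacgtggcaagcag
PLK1: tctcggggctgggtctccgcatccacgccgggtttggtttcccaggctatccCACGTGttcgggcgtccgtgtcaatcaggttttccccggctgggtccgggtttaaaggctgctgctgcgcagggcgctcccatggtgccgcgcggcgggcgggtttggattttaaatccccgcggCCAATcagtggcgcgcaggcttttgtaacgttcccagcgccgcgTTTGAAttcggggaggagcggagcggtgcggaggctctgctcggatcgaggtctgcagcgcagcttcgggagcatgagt
COL4A1: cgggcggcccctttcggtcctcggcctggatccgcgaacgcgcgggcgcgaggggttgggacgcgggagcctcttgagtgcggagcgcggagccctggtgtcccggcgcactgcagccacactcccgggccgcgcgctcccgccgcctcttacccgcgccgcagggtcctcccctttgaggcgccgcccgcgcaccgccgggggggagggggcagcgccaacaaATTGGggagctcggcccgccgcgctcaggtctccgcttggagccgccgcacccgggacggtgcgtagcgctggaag
The promoter of ARRDC4 held an E-box at 210 bases before the start, 3 CCAAT boxes and an AP-1 site. That of CRYBA2 held an AP-1 site at 86 bases and a TATA box at 29 bases before the start. H2AC11 had 4 CCAAT boxes, an E2F site and TATA boxes at 2 places, of which that nearer the start holds overlapping matches on both strands, and PLK1 had an E-box, a CCAAT box at 73 bases and a CHR at 29 bases before the start. In COL4A1 the window held 1 CCAAT box, and it overlaps the window of its neighbor COL4A2, which is transcribed in the other direction. A match describes letters in this window and not the binding of a factor.

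JQ1 lowered 2680 of the 13150 genes at an edgeR adjusted p under 0.05, which is 20.4% of the genes tested, and raised 1009, which is 7.67%. Beyond a log2 fold change of 1 there were 2571 lower and 797 higher genes, and beyond 3 there were 590 and 70. The median log2 fold change was −2.05 among the lower genes and 1.39 among the higher ones, against −0.14 over all genes tested. The JQ1 libraries all lay above or all below the DMSO libraries in 44.6% of all genes tested, and 1 of the called genes had overlapping groups. In bulk RNA, fewer cells of a type and less RNA per cell cannot be told apart, and the values are shares of each library. The balance of the calls moved with the scaling. With RLE size factors 1755 genes were lower and 1287 higher, with library size only 3069 and 635, and the median of all genes was 0.14 and −0.38. After a correction of each library for gene GC content 3016 genes were lower and 3259 higher, and after one for GC content and length 2963 and 2929 (22.5% and 22.3% of genes tested), with medians of 0.09 and 0.08. Of the main calls 2309 lower and 845 higher genes were also called after the GC and length correction, and 0 were called in the opposite direction. Single libraries carried much of the counts, with 1009 lower and 371 higher genes without JQ1 replicate 1, 1784 and 522 without DMSO replicate 2, and 1628 lower genes without JQ1 replicate 3. Leaving out DMSO replicate 3 gave 1737 lower and 435 higher genes. In all of the 6 fits that leave out 1 library, 932 lower and 339 higher genes kept their call, and apart from members that did not pass the test the genes named below were chosen among these. Gene lists are described by their calls and by the median log2 fold change of their tested members. Where a list has a count of 0, the numbers at an unadjusted edgeR p under 0.05 and by DESeq2 follow it in parentheses, in this order.

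Genes with long and GC-rich transcripts were lower with JQ1 more often than short or AT-rich ones. In 5 equal groups of genes from the shortest to the longest transcripts, the median log2 fold change was 0.11, −0.07, −0.13, −0.22 and −0.43. The share of genes called higher was 15.03% in the shortest group and 2.98% in the longest. In 5 equal groups from the lowest to the highest GC content the medians were 0.22, 0.21, −0.05, −0.39 and −0.82, and the share called lower was 3.94% in the lowest and 37.7% in the highest. By mean level, the 20% of genes with the lowest CPM had a median of −0.92 and the 20% with the highest 0.23. Where both features met, in the 25% of longest and the 25% of most GC-rich transcripts, 240 of 347 genes were lower (69.2%) and 3 higher, with a median of −1.91. After the GC and length correction, which removes such trends by its construction, the median of these 347 genes was −0.83, and in UM-SCC-047 the median of those tested was −0.78. The libraries themselves differed in their GC slopes, and the part of this in the trend was not tested.

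**Figure D1:**
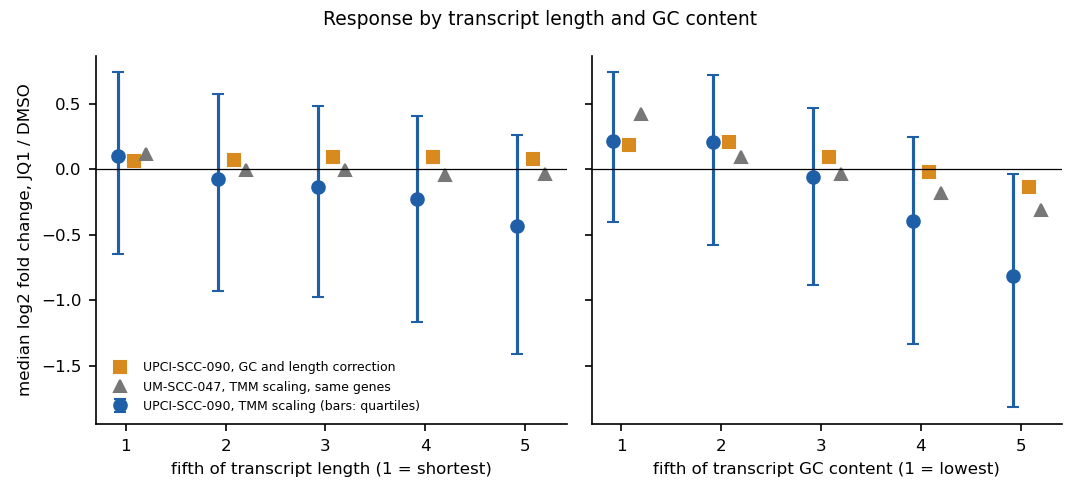
Median log2 fold change of JQ1 over DMSO (y axis) in 5 equal groups of genes by the length of the longest transcript (left) and by its GC content (right), with quartiles as bars for UPCI-SCC-090. The circles of UPCI-SCC-090 fall from 0.11 to −0.43 along length and from 0.22 to −0.82 along GC content, the squares are the values after the GC and length correction, and the triangles are the same genes in UM-SCC-047.

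The steepest rises were seen in genes that were close to silent with DMSO. The gene ENSG00000117289, which the annotation used here does not name, had 2.85, 3.04 and 4.68 CPM with DMSO and 3620.5, 3819 and 3503 CPM with JQ1. All JQ1 libraries lay far above the DMSO libraries, with a log2 fold change of 10.01 ± 0.33 (adjusted p = 3.3e-04 by edgeR). ARRDC4, an arrestin-domain protein that restrains glucose uptake, stood at 0.214, 0.0428 and 0.226 CPM with DMSO and 14.03, 4.497 and 26.3 CPM with JQ1. It rose by 6.46 ± 0.92 (adjusted p = 0.005 by edgeR), although JQ1 replicate 2 had less than the other JQ1 libraries. CRYBA2, a crystallin of the eye lens, had 0.0357, 0.299 and 0.0323 CPM with DMSO and 18.03, 22.5 and 19.3 CPM with JQ1, with 9 counts in all over the DMSO libraries. Its log2 fold change was 7.38 ± 0.86 (adjusted p = 0.0038 by edgeR). TRIM43, a ubiquitin ligase of a primate gene cluster that the early embryo uses, went from 9 counts over the DMSO libraries to 1251 over the JQ1 libraries (7.13, adjusted p = 0.0015 by edgeR). It belongs to the TRIM49 and TRIM43 family, of which 6 of 9 members in the count table were tested, and all 6 were higher. A member as low as TRIM43 with DMSO passes the count filter only if it is high with JQ1. This count therefore follows from the filter and says nothing more about the family. Near-identical copies of this family share reads, so the values of single members are uncertain.

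Keratins of the activated and the mucosal layers rose, while other keratins fell or did not pass the test. Of 15 tested keratins of basal and stratified epithelium, 9 were higher and 2 lower, with a median log2 fold change of 1.97. KRT16 (ENSG00000186832, chromosome 17 from 39766030 to 39772151 of GRCh37), which pairs with KRT6 in activated epithelium, had 16.98, 25.5 and 24.01 CPM with DMSO and 1361, 1832 and 1323 CPM with JQ1. The groups were far apart, with a log2 fold change of 6.09 ± 0.29 (adjusted p = 0.0015 by edgeR). KRT4 (chromosome 12 from 53200333 to 53207900 of GRCh37), the type II keratin of wet mucosa, had 4.74, 7.102 and 5.03 CPM with DMSO and 176, 366 and 218 CPM with JQ1. Its partner KRT13 (chromosome 17 from 39657233 to 39661957 of GRCh37) had 30.6, 46.6 and 38.2 CPM with DMSO and 873, 1106 and 738 CPM with JQ1. Both rose in every JQ1 library, by 5.49 and 4.56 on the log2 scale (adjusted p = 0.0034 and 0.0023 by edgeR). KRT6A, whose CPM was high already with DMSO, went from 4594 ± 931 to 11092 ± 1832 CPM (SD, n = 3), and its near-identical paralog KRT6C from 8.82 ± 1.81 to 471 ± 102 CPM, so the split between them is uncertain. KRT19, a keratin of simple and HPV-prone tonsil crypt epithelium, rose from 2919.5 ± 644 to 10195 ± 2126 CPM (adjusted p by edgeR at most 0.0079 for these keratins). KRT75, a keratin of the hair follicle companion layer, fell by 2.87 (adjusted p = 0.0038 by edgeR). KRT5 and KRT17, keratins of basal and injured epithelium, were at 0.03 and −0.14 with overlapping groups (adjusted p = 0.97 and 0.75 by edgeR).

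Some secreted and surface proteins of the mucosa rose as well, in families that were mixed. Of 12 tested LY6 family genes 4 were higher and 3 lower, of 21 tight junction and claudin genes 1 and 4, of 6 mucins and secreted mucosal proteins 2 and 2, and of 10 clade B serpins 1 and 4. Lower LY6 genes numbered 0 without DMSO replicate 2 or 3 or JQ1 replicate 1 or 3, lower tight junction genes 1 without JQ1 replicate 1, lower serpins 0 without DMSO replicate 3 or JQ1 replicate 3 and 2 without DMSO replicate 1 or 2 or JQ1 replicate 1 or 2, and higher serpins 0 without DMSO replicate 2 or 3 or JQ1 replicate 1 and 3 without JQ1 replicate 2. Higher mucosal proteins numbered 1 without DMSO replicate 1. LY6D, a GPI-anchored protein of keratinocytes, had 0.178, 0.727 and 0.645 CPM with DMSO and 27.96, 44.2 and 34.6 CPM with JQ1. This is a log2 fold change of 6.1 ± 0.62 (adjusted p = 0.0037 by edgeR) with no overlap. MAL, a lipid raft protein of mature mucosa, rose from 0.697 ± 0.0953 to 12.4 ± 1.55 CPM (SD, n = 3), and SLPI, a secreted inhibitor of leukocyte elastase, from 0.394 ± 0.1497 to 10.4 ± 1.84 CPM. CALML3, a calmodulin of epithelium, and CLDN4, a tight junction claudin, rose from 184 to 803 CPM and from 93.8 to 441 CPM on average. Among 11 tested S100 proteins, small calcium sensors, 6 were higher and 1 lower. S100A14 had 6.28, 8.98 and 7.49 CPM with DMSO and 139, 187 and 149 CPM with JQ1, and S100A16 rose from 50.3 ± 10.7 to 722 ± 129 CPM. S100A13 rose by 2.0 and S100A9, a subunit of calprotectin with only 6 counts over the DMSO libraries, by 4.59. The LY6 family members CD59, an inhibitor of complement, and LYPD3, an adhesion protein of upper keratinocytes, rose by 2.65 and 1.75 (adjusted p by edgeR at most 0.0098 for these 10 genes). The late cornified envelope program did not move as a block, with 4 lower and 5 higher of 15 tested genes. IVL, the envelope precursor involucrin, reached only 1.12 ± 0.0799 CPM with JQ1 from 7 counts over the DMSO libraries (3.64, adjusted p = 0.0044 by edgeR). EVPL, the envelope plakin envoplakin, fell from 46.7 ± 13.3 to 3.06 ± 1.06 CPM, and TCHH, the trichohyalin of hair sheath, fell by 4.84 (adjusted p = 0.0038 and 0.0068 by edgeR). With 1 library left out 8 to 9 keratins and 5 to 6 S100 genes were still higher, the lower S100 gene lost its call in each case, and 1 keratin was lower without DMSO replicate 2 or 3 or JQ1 replicate 1 or 3. The lower envelope genes numbered 2 without DMSO replicate 1, 2 or 3 or JQ1 replicate 1 or 3, and the higher ones 3 without DMSO replicate 3 or JQ1 replicate 1.

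**Figure D2:**
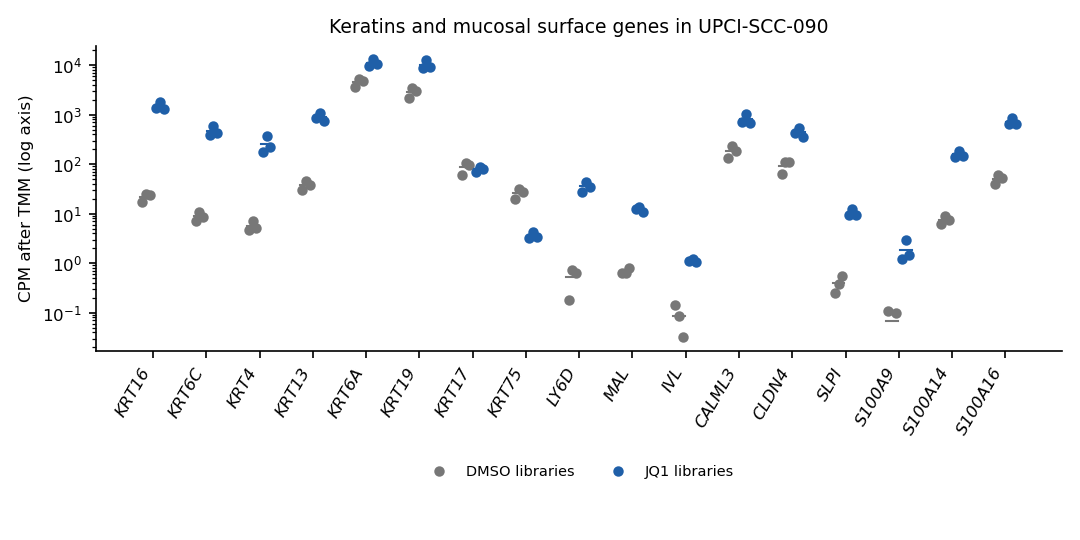
CPM after TMM on a log axis for keratins and mucosal genes, with each point 1 library (gray DMSO, blue JQ1) and each line the mean of 3. KRT4, KRT13, KRT16, LY6D and S100A14 show separate groups, KRT17 shows overlapping ones, and the DMSO library of S100A9 at 0 is not drawn.

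Ribosomal protein mRNAs rose across both subunits. Of the large subunit 44 of 46 tested genes were higher and 0 (0 and 0) lower, with a median of 1.36 on the log2 scale, and of the small subunit 26 of 32 were higher and 0 (0 and 0) lower, with a median of 1.43. RPL11, which also holds back the p53 inhibitor MDM2, had 398, 431 and 438 CPM with DMSO and 1656, 1644 and 2035 CPM with JQ1. RPL23 and RPS4X went from 381 ± 46.9 to 1536 ± 143 CPM and from 567 ± 28.04 to 2298 ± 365 CPM (SD, n = 3). The log2 fold changes of these genes were 2.07, 2.01 and 2.02 (adjusted p = 0.0037 for each by edgeR). RPS28, RPLP1 and RPS6 rose by 2.16, 1.91 and 1.98 (adjusted p by edgeR at most 0.0083), whereas RPL35 was at 0.31 and did not pass the test (adjusted p = 0.39 by edgeR). EEF1A1, the elongation factor that brings aminoacyl-tRNA to the ribosome, rose from 9279 ± 1242 to 25419 ± 3170.3 CPM, and EIF3L, an initiation factor subunit, by 1.36 (adjusted p = 0.0041 and 0.0048 by edgeR). Other translation and assembly genes did not share this pattern. Of 47 initiation and elongation factors 3 were higher and 1 lower, of 73 mitochondrial ribosomal proteins 6 and 2, and of 56 ribosome biogenesis factors 1 and 4. Without JQ1 replicate 1 each of these lists had at most 1 lower and at most 2 higher genes. Higher mitochondrial ribosomal proteins also numbered 3 without DMSO replicate 1 or 3 and 2 without DMSO replicate 2, and higher factors 8 without JQ1 replicate 2. With the GC and length correction 14 factors, 13 mitochondrial ribosomal proteins and 6 biogenesis factors were higher, and 1, 9 and 8 lower. TCOF1, the nucleolar protein treacle that serves rRNA transcription, fell from 55.9 ± 19.4 to 2.64 ± 0.766 CPM, with no overlap (−4.4, adjusted p = 0.0037 by edgeR). By the longest annotated transcript of each gene, the large subunit genes had medians of 2101 bases and 47.9% GC. The small subunit genes had 1575 bases and 48.5% GC, both among the shorter genes. Whether these are the transcripts expressed was not tested. After the GC and length correction 41 and 25 were higher, and without JQ1 replicate 1, the library whose omission cost most calls, 31 and 21.

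Histone genes, whose mRNAs lack a poly(A) tail when made for replication, rose. Of 59 replication-dependent histone genes 25 were matched to the count table, and 19 of these had enough counts to be tested. Among the 19 tested, 15 were higher and 0 (1 and 0) lower, with a median of 2.61. H2AC11 had 12.2, 6.76 and 7.65 CPM with DMSO and 139, 134 and 154 CPM with JQ1, a log2 fold change of 4.0 ± 0.31 (adjusted p = 0.0037 by edgeR). H4C8 and H2BC5 went from 2.15 ± 0.896 to 54.1 ± 23.4 CPM and from 9.07 ± 1.83 to 122 ± 36.5 CPM (SD, n = 3). Copies of these genes are near identical and can share reads. Of 18 histone promoters found in the RefSeq table, 16 of 18 held a CCAAT box, 11 of 18 a TATA box and 6 of 18 an E2F site, as in the promoter of H2AC11 printed above. These are 88.9%, 61.1% and 33.3%, against 35.7%, 11.95% and 1.18% of all 27305 promoters of the table. Among 10 tested histones that are made outside replication, 4 were higher and 1 lower. H3-3A and H3-3B, which both encode the variant H3.3, rose by 2.0 and 1.83, and MACROH2A2, a variant of silent chromatin, fell by 1.83 (adjusted p by edgeR at most 0.011 for these genes, H4C8 and H2BC5). The GC and length correction left 13 replication-dependent genes higher and 2 lower, and without JQ1 replicate 1 10 were higher.

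Some genes of growth arrest and of the stress response rose. Of 36 tested p53 targets 15 were higher and 1 lower, with a median of 1.21. CDKN1A, the inhibitor p21 of cyclin-dependent kinases, had 101, 165 and 152 CPM with DMSO and 1839, 2318 and 1655 CPM with JQ1. The JQ1 libraries were all above the DMSO libraries, with a log2 fold change of 3.8 ± 0.27 (adjusted p = 0.0032 by edgeR). CDKN2B, the CDK4 and CDK6 inhibitor p15, rose from 15.4 ± 2.06 to 145 ± 27 CPM (SD, n = 3), while its relative CDKN2C, the inhibitor p18, fell from 110.2 ± 21.8 to 24.96 ± 2.69 CPM. BTG2, an antiproliferative factor, and GADD45A, a sensor of DNA damage, rose by 2.42 and 2.35. The proapoptotic BH3 proteins BMF and BIK rose by 1.99 and 2.23 (adjusted p by edgeR at most 0.009 for these 6 genes). Of 16 tested BCL2 family genes 5 were higher and 2 lower. The family had 2 higher and 0 lower without JQ1 replicate 1, and 8 and 3 after the GC and length correction. HEXIM1, the inhibitor of P-TEFb that is used as a marker of BET inhibition, had 72.97, 76.5 and 67.2 CPM with DMSO and 336, 378 and 319.6 CPM with JQ1 and rose by 2.26 (adjusted p = 0.0037 by edgeR). Single libraries moved the count of p53 targets, which was 5 without DMSO replicate 3 or JQ1 replicate 1 and 9 without DMSO replicate 2, and 27 after the GC and length correction.

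Genes of redox, iron and glucose handling rose in part. Of 30 tested NRF2 targets 12 were higher and 1 lower, with a median of 0.78. FTL, the light chain of ferritin, had 297, 446 and 494 CPM with DMSO and 2659.7, 2912 and 2727 CPM with JQ1, a log2 fold change of 2.75 ± 0.24 (adjusted p = 0.0037 by edgeR). HMOX1, which degrades heme, and NQO1, a quinone reductase, went from 4.15 ± 0.7299 to 31.2 ± 6.83 CPM and from 71.7 ± 10.8 to 324 ± 19.9 CPM (SD, n = 3). AKR1C3, an aldo-keto reductase of steroids, was the 1 member that fell, from 6.81 ± 1.33 to 0.492 ± 0.257 CPM (−3.77, adjusted p = 0.0041 by edgeR). Of 20 tested hypoxia targets 7 were higher and 0 (0 and 0) lower. These included ALDOC, a glycolytic aldolase, SLC2A1, the glucose transporter GLUT1, and ANGPTL4, an inhibitor of lipoprotein lipase, which rose by 2.33, 1.51 and 2.74. EPAS1, the hypoxia-inducible factor HIF-2 alpha, rose by 1.94 (adjusted p by edgeR at most 0.01 for these 6 risen genes). The count of hypoxia targets was 3 without JQ1 replicate 1 and 4 without DMSO replicate 3, and 15 after the GC and length correction.

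Lysosomal and respiratory genes rose more often than all genes, the respiratory ones only before the GC and length correction. Of 52 tested lysosomal hydrolases and V-ATPase subunits 14 were higher and 1 lower, and of 38 autophagy genes 8 were higher and 2 lower. NEU1, the lysosomal sialidase, and GABARAPL2, a ubiquitin-like protein of autophagosomes, rose from 112 ± 28.5 to 347 ± 71.8 CPM and from 34.9 ± 0.928 to 139 ± 8.51 CPM (SD, n = 3). BECN1 and ATG14 are partners in the kinase complex that starts autophagosomes. BECN1 rose by 1.79 and ATG14 fell by 2.84 (adjusted p by edgeR at most 0.0074 for these 4 genes). Of 38 nuclear genes of respiratory complex I 10 were higher and 0 (1 and 0) lower, and of 39 of complexes II to V 12 were higher and 0 (0 and 0) lower. COX6C, a subunit of cytochrome oxidase, and ATP5PD, a subunit of ATP synthase, rose by 1.83 and 1.5, and NDUFB3 of complex I by 1.83 (adjusted p by edgeR at most 0.0063). COX6C and NDUFB3 missed the threshold after the GC and length correction (adjusted p = 0.062 and 0.063 by edgeR). The mRNAs made inside the mitochondrion did not rise with them. Of 13, 2 were lower and 0 (0 and 0) higher, with MT-ND5 at 821, 1200.2 and 544 CPM with DMSO and 179, 148 and 286 CPM with JQ1 (−2.07, adjusted p = 0.01 by edgeR), and MT-CO1 was at −0.1 with overlapping groups (adjusted p = 0.79 by edgeR). Among 37 tested genes of ER stress and the ATF4 response 7 were higher and 0 (0 and 0) lower, including ASNS, asparagine synthetase, which rose by 1.74 (adjusted p = 0.0038 by edgeR). The higher genes of complex I numbered 1 without JQ1 replicate 1, 2 without DMSO replicate 2 and 4 without DMSO replicate 3, while those of complexes II to V 2 without JQ1 replicate 1, 4 without DMSO replicate 2 and 7 without DMSO replicate 3. Higher lysosomal genes numbered 4 without DMSO replicate 3 or JQ1 replicate 1 and 8 without DMSO replicate 2, autophagy genes 2 without JQ1 replicate 1 and 3 without DMSO replicate 2 or 3, and ER stress genes 1 without DMSO replicate 3 or JQ1 replicate 1 and 2 without DMSO replicate 2. The counts of lower mitochondrial mRNAs were 1 without JQ1 replicate 1 and 5 without JQ1 replicate 3. After the GC and length correction 33 lysosomal, 17 autophagy and 17 ER stress genes were higher, and 9 mitochondrial mRNAs lower. Of complex I 8 of 38 and of complexes II to V 6 of 39 were then higher, under the 22.3% of all genes.

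Among signaling genes, the BMP and Notch lists held members that rose beside members that fell. ID1 and ID2 encode inhibitors of basic helix-loop-helix factors, are induced by BMP, and belong to a TGF-beta and BMP list with 6 higher and 6 lower of 40 tested. ID1 had 94.4, 159 and 142 CPM with DMSO and 933, 1339 and 858 CPM with JQ1, a log2 fold change of 2.98 ± 0.3 (adjusted p = 0.0037 by edgeR). ID2 and ID3 rose from 31.5 ± 9.94 to 422 ± 132 CPM and from 142 ± 38.8 to 560.0 ± 174 CPM (SD, n = 3), and FSTL3, an inhibitor of activin, by 2.41. In the Notch list 5 were higher and 11 lower of 28 tested. The risen members included HES5 and HES2, repressors of the HES family, and LFNG, a glycosyltransferase that tunes Notch receptors, with log2 fold changes of 4.13, 2.54 and 1.88. Of 33 immediate early genes 7 were higher and 4 lower. FOS, a subunit of AP-1, rose from 1.45 ± 0.199 to 10.5 ± 1.24 CPM, IER5 from 18.3 ± 3.49 to 110.0 ± 31.3 CPM and GADD45B, a stress sensor, from 1.59 ± 0.585 to 17.8 ± 5.38 CPM (adjusted p by edgeR at most 0.0097 for the genes of this paragraph). The lower Notch members numbered 2 without JQ1 replicate 1, 5 without JQ1 replicate 3, 6 without DMSO replicate 2 or 3 and 7 without DMSO replicate 1, and the higher ones 3 without DMSO replicate 2 or 3 or JQ1 replicate 1. Lower immediate early genes numbered 1 without JQ1 replicate 1 and 2 without JQ1 replicate 3, and lower TGF-beta and BMP genes 2 without DMSO replicate 3 and 3 without DMSO replicate 2 or JQ1 replicate 1 or 3. The GC and length correction gave 8 higher Notch members, 16 higher immediate early genes and 15 higher TGF-beta and BMP genes.

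Many proliferation genes fell. Of 44 tested mitotic genes 29 were lower and 0 (0 and 0) higher, with a median of −2.86. Of 40 genes of G1/S and replication 24 were lower and 0 (0 and 0) higher, and of 31 genes of homologous recombination and the Fanconi pathway 11 and 0 (0 and 0). MKI67, the proliferation antigen Ki-67, had 205, 50.3 and 27.8 CPM with DMSO and 2.03, 0.405 and 1.15 CPM with JQ1. DMSO replicate 1 was far above the other DMSO libraries, and no JQ1 library came near them. PLK1, a kinase of the mitotic spindle, had 149, 226 and 189.6 CPM with DMSO and 17.6, 13.1 and 8.65 CPM with JQ1, and fell by 3.84 (adjusted p = 0.0037 by edgeR). FOXM1, the factor that switches on mitotic genes, fell from 215 ± 43.1 to 8.87 ± 4.78 CPM (SD, n = 3). GINS1, a subunit of the replicative helicase, CDT1, a licensing factor, RAD54L, a recombinase partner, and FANCD2, of crosslink repair, fell, with log2 fold changes of −2.79, −2.66, −3.16 and −2.94. PCNA, the sliding clamp of replication, was at 0.39 and did not pass the test (adjusted p = 0.57 by edgeR). APOBEC3B, a DNA cytidine deaminase active in HPV+ tumors, fell by 2.86 (adjusted p by edgeR at most 0.013 for these 6 fallen genes and MKI67). Of 37 mitotic promoters in the RefSeq table, 27 held the CHR of the PLK1 promoter above and 29 a CCAAT box, which is 73.0% and 78.4% against 15.4% and 35.7% of all promoters. The mitotic count was 21 to 39 with 1 library left out and 43 after the GC and length correction. The lower G1/S genes numbered 8 without JQ1 replicate 1, 12 without JQ1 replicate 3, 13 without DMSO replicate 3 and 15 without DMSO replicate 2. Recombination genes numbered 4 without JQ1 replicate 1 and 23 after that correction.

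Many genes of the basement membrane and interstitial matrix fell. Of 19 tested collagen genes 16 were lower and 1 higher, with a median of −2.55, and of 16 laminins, nidogens and perlecan 8 were lower and 1 higher. COL4A1 (chromosome 13 from 110801310 to 110959504 of GRCh37), a chain of the collagen network of basement membranes, had 138, 145 and 111 CPM with DMSO and 8.1, 4.46 and 1.73 CPM with JQ1. Its head-to-head neighbor COL4A2 (chromosome 13 from 110958159 to 111165556 of GRCh37) had 196, 270.2 and 171 CPM with DMSO and 10.9, 7.09 and 2.88 CPM with JQ1. Both were lower in every JQ1 library, with log2 fold changes of −4.78 and −4.93 (adjusted p = 0.0041 and 0.0038 by edgeR). HSPG2, the proteoglycan perlecan that ties laminin to collagen IV, had 367, 719 and 382 CPM with DMSO and 24.5, 8.14 and 3.58 CPM with JQ1, which is a fall of 5.34 (adjusted p = 0.0056 by edgeR). Here JQ1 replicate 1 was the highest of the JQ1 libraries, as it was for COL15A1, a collagen beside basement membranes, with 126, 159 and 129 CPM with DMSO and 7.56, 1.701 and 1.15 CPM with JQ1. LAMA5, a laminin chain of epithelia, fell from 159.5 ± 51.6 to 20.8 ± 9.54 CPM (SD, n = 3), while LAMC1, the shared gamma chain, was at 0.27 and did not pass the test (adjusted p = 0.38 by edgeR). TNC, the tenascin of tumor stroma and wounds, fell from 1389 ± 217 to 41.2 ± 39.3 CPM, and TNXB, another tenascin, fell by 5.64. FKBP10, a collagen chaperone, and LOXL3, a lysyl oxidase that cross-links collagen, fell, with log2 fold changes of −4.25 and −3.59 (adjusted p by edgeR at most 0.0056 for COL15A1 and these 5 fallen genes).

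Among the proteins that cut or decorate the matrix, falls were joined by some rises. Of 35 tested proteoglycans and matricellular proteins 18 were lower and 3 higher, and of 27 matrix proteases and inhibitors 13 and 3. ADAM12, a membrane metalloprotease, MMP10, a stromelysin, and ADAMTS1, which cleaves proteoglycans, fell from 17.3 ± 2.85 to 0.661 ± 0.369 CPM, from 19.2 ± 3.302 to 1.44 ± 0.835 CPM and from 42.3 ± 5.399 to 4.18 ± 1.05 CPM (SD, n = 3). PLAU, urokinase, had 1.46, 2.01 and 2.19 CPM with DMSO and 8.98, 12.5 and 7.86 CPM with JQ1, a rise of 2.37 (adjusted p = 0.0051 by edgeR). TGFBI, a matrix adaptor of integrins, and SDC4, a syndecan of focal adhesions, rose by 1.98 and 1.95. COL1A1, the collagen chain that also served as a fibroblast marker, fell by 2.91, along with the summed fibroblast markers given above, of which it was most of the level, and the part of other cells was not tested (adjusted p by edgeR at most 0.011 for these 6 genes). Collagen transcripts were long and GC-rich, with medians of 6531 bases and 60.2% GC, and after the GC and length correction 14 of the 19 were lower. Without JQ1 replicate 1 there were 9 lower collagens, 5 lower genes of the laminin list, as many as after that correction, and 8 lower proteoglycans. Lower matrix proteases numbered 7 without DMSO replicate 3 or JQ1 replicate 1 or 3 and 8 without DMSO replicate 2.

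Some genes of the cell side of matrix attachment and of the cortical cytoskeleton fell too, in lists with somewhat more lower calls than the 20.4% of all genes. Of 17 tested genes of desmosomes and hemidesmosomes 5 were lower and 1 higher, and of 17 integrins 6 and 0 (0 and 0). COL17A1 and ITGB4, the collagen and the integrin of hemidesmosomes, fell from 659.9 ± 113 to 113 ± 49.2 CPM and from 536 ± 134 to 65.2 ± 32.7 CPM (SD, n = 3). PLEC, the plakin that ties them to keratin, had 305, 489 and 240.5 CPM with DMSO and 16.9, 10.5 and 4.12 CPM with JQ1, a log2 fold change of −5.03 ± 0.62 (adjusted p = 0.0041 by edgeR). Of 20 spectrins, ankyrins and plakins 7 were lower and 0 (0 and 0) higher. FLNA, the filamin that cross-links actin, MYH9, nonmuscle myosin II heavy chain, and MYO1C, a membrane-linked myosin, fell, with log2 fold changes of −3.33, −3.06 and −2.9 (adjusted p by edgeR at most 0.0064 for the genes without a p of their own). Lower integrins numbered 3 without JQ1 replicate 1, and lower genes of desmosomes and hemidesmosomes 3 without DMSO replicate 2 or 3 or JQ1 replicate 1 or 3.

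**Figure D3:**
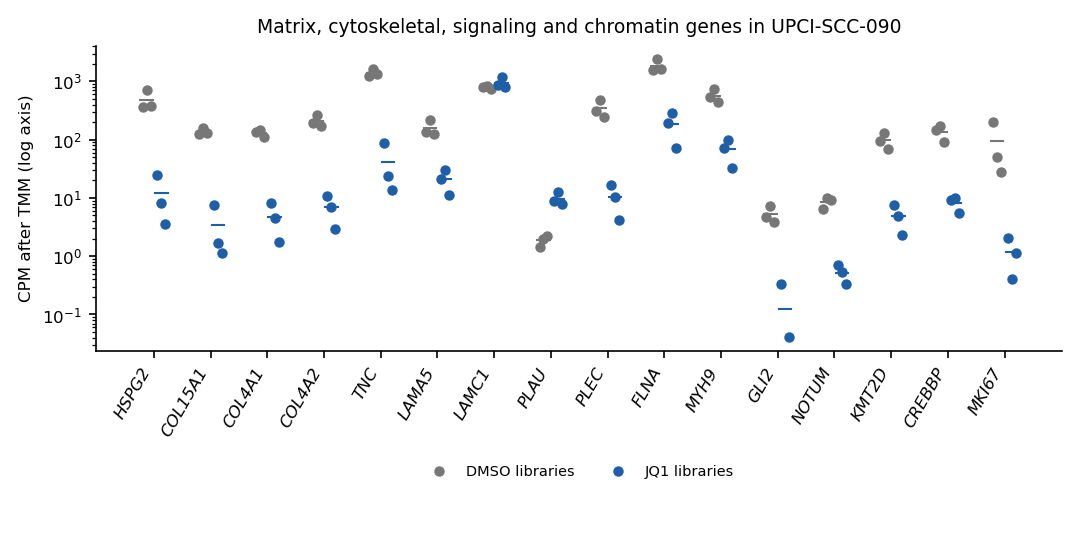
CPM after TMM on a log axis for matrix, cytoskeletal, signaling, chromatin and proliferation genes, with each point 1 library (gray DMSO, blue JQ1) and each line the mean of 3. PLAU rises, LAMC1 overlaps, and the other genes lie lower in all JQ1 libraries; the JQ1 library of GLI2 at 0 is not drawn.

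Some ligands, receptors and effectors of developmental signaling fell. In the Wnt list 21 of 46 tested genes were lower and 3 higher. NOTUM, an enzyme that inactivates Wnt ligands, had 6.35, 10.1 and 9.23 CPM with DMSO and 0.712, 0.527 and 0.329 CPM with JQ1, a log2 fold change of −4.01 ± 0.43 (adjusted p = 0.0037 by edgeR). The ligand WNT2B fell from 33.6 ± 5.34 to 3.005 ± 0.725 CPM (SD, n = 3), whereas the ligand WNT9A rose from 15.3 ± 3.303 to 55.8 ± 18.7 CPM (adjusted p = 0.0037 and 0.0098 by edgeR). In the Hedgehog list 8 of 15 were lower and 1 higher. The ligand SHH had 6.705, 6.63 and 6.52 CPM with DMSO and 0.847, 0.932 and 0.494 CPM with JQ1, and the effectors GLI2 and GLI3, the zinc finger factors of the pathway, fell from 5.35 ± 1.83 to 0.127 ± 0.185 CPM and from 29.97 ± 7.11 to 4.24 ± 0.922 CPM. Of 23 FGF ligands and receptors with their targets 12 were lower and 0 (0 and 0) higher, including ETV4, an ETS factor of FGF and ERK signaling, which fell by 3.48. Of 14 EGFR family receptors and ligands 3 were lower and 1 higher, near the shares of all genes. After the GC and length correction 3 were lower and 4 higher. NRG1 of this list, the ligand neuregulin of ERBB3, fell by 3.13. In insulin and IGF signaling 10 of 28 were lower and 1 higher. IRS1, the docking protein of the insulin and IGF receptors, IGFBP5 and IGFBP7, which bind IGF outside the cell, fell from 27.7 ± 6.58 to 1.75 ± 0.184 CPM, from 676 ± 80.2 to 54.6 ± 14.95 CPM and from 88.7 ± 27.6 to 8.48 ± 4.21 CPM. Of 24 semaphorins, plexins and neuropilins 13 were lower and 1 higher, with PLXND1 and NRP2, receptors of semaphorins, at −4.52 and −3.14. Among Eph receptors and ephrins 3 were lower and 3 higher of 17, and EPHB6 fell by 2.7 (adjusted p by edgeR at most 0.01 for the genes without a p of their own). Lower Wnt members numbered 10 without JQ1 replicate 1 and 13 without JQ1 replicate 3, Hedgehog members 4 without JQ1 replicate 1, FGF members 4 without JQ1 replicate 1 and 7 without JQ1 replicate 3, insulin and IGF members 4 without JQ1 replicate 1 and 5 without DMSO replicate 2 or 3 or JQ1 replicate 3, and semaphorin members 4 without JQ1 replicate 1, 7 without JQ1 replicate 3 and 8 without DMSO replicate 2 or 3. Of the Eph calls, 1 lower was left without JQ1 replicate 1, 1 higher without DMSO replicate 2, and the higher ones were lost without DMSO replicate 3 or JQ1 replicate 1. The GC and length correction gave 10 higher Wnt members beside 17 lower, 4 higher of Hedgehog, 5 of insulin and IGF signaling, 6 semaphorins and 8 of the Eph list.

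Many developmental transcription factors fell. Of 26 tested HOX genes, which record position along the body axis, 14 were lower and 0 (2 and 2) higher. Of 21 forkhead factors 10 were lower and 0 (1 and 1) higher, and of 10 SOX factors 5 and 0 (0 and 0). HOXC8 had 6.598, 6.07 and 4.62 CPM with DMSO and 0.644, 0.243 and 0.329 CPM with JQ1, a log2 fold change of −3.8 ± 0.46 (adjusted p = 0.0041 by edgeR). FOXE1, a factor of thyroid and foregut, fell from 3299 ± 512 to 901 ± 288 CPM (SD, n = 3), and FOXK1, a regulator of metabolism, fell by 3.26. SOX21, a partner of SOX2 in epithelium, had 106, 107 and 110.4 CPM with DMSO and 28.2, 27.95 and 17.9 CPM with JQ1. MYCN, a relative of MYC, fell from 15.1 ± 1.54 to 2.41 ± 0.5902 CPM (adjusted p by edgeR at most 0.0052 for these 4 genes). Lower HOX genes numbered 7 without JQ1 replicate 1 or 3, forkhead genes 5 without JQ1 replicate 1 and 6 without JQ1 replicate 3, and SOX genes 2 without DMSO replicate 2 or 3 or JQ1 replicate 1 and 3 without DMSO replicate 1 or JQ1 replicate 3.

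Enzymes that write and read histone marks fell in part. Of 31 tested histone lysine methyltransferases 13 were lower and 1 higher, with a median of −1.26, and of 41 subunits of chromatin remodelers 14 and 0 (2 and 0). KMT2D, which marks enhancers by methylating lysine of histone H3, had 96.7, 130.3 and 68.6 CPM with DMSO and 7.66, 4.94 and 2.31 CPM with JQ1, a log2 fold change of −4.31 ± 0.54 (adjusted p = 0.0041 by edgeR). KMT2B and SETD1B of the same enzyme family fell, with log2 fold changes of −3.22 and −3.32. Of 14 histone acetyltransferases 3 were lower and 0 (0 and 0) higher, near the 20.4% lower of all genes, with a median of −0.27. CREBBP and EP300, the paired acetyltransferases that place the marks that BET proteins read, fell from 138 ± 42.3 to 8.15 ± 2.31 CPM and from 71.3 ± 23.8 to 8.84 ± 2.18 CPM (SD, n = 3). ARID1A, a subunit of the SWI/SNF complex, and CHD3, a helicase of the NuRD complex, fell, with log2 fold changes of −3.85 and −3.77. Of 21 demethylases 6 were lower and 1 higher, but 4 lower and 8 higher after the GC and length correction. Lower demethylases numbered 1 without JQ1 replicate 1. Of 18 deacetylases and sirtuins 3 were lower and 2 higher, and 3 and 7 after that correction. KDM6B fell by 3.01 and KDM5B rose by 1.16, and HDAC9, a class IIa deacetylase, fell by 4.52 (adjusted p by edgeR at most 0.0094 for these 9 genes). BRD2, a target of JQ1 itself, was at 0.69 and did not pass the test, although its groups did not overlap (adjusted p = 0.061 by edgeR), and with the replicate block, which pairs libraries of the same number, it passed (0.67, adjusted p = 0.03 by edgeR). It also passed without both libraries of the steepest GC trends (adjusted p = 0.044 by edgeR), and stood at 1.04 after the GC correction and 1.33 after the GC and length correction (adjusted p = 0.0023 and 0.001 by edgeR). Methyltransferase genes had medians of 6808 bases and 47.6% GC, and after the GC and length correction 14 were lower and 2 higher, and 12 remodeler genes lower and 5 higher. Lower methyltransferases numbered 7 without JQ1 replicate 1, where the 1 higher call was lost with any library left out, and lower remodelers 9 without JQ1 replicate 1 or 3.

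Genes that make lipid fell in part. Of 24 tested genes of cholesterol synthesis 8 were lower and 1 higher, and of 23 of fatty acid synthesis 7 and 1. FASN, the fatty acid synthase, had 319.9, 578 and 388 CPM with DMSO and 29.3, 24.1 and 5.39 CPM with JQ1. Its JQ1 replicate 3 was the lowest of the JQ1 libraries, and all were far under DMSO (−4.45, adjusted p = 0.0056 by edgeR). SREBF1, the factor that drives these genes, fell from 270.3 ± 73.3 to 23.3 ± 9.62 CPM (SD, n = 3). The desaturases SCD and FADS2 fell, with log2 fold changes of −2.29 and −2.58. TM7SF2, a sterol reductase, rose from 29.8 ± 8.101 to 109 ± 21.1 CPM (adjusted p by edgeR at most 0.0064 for these 4 genes). Lower genes of cholesterol synthesis numbered 2 without JQ1 replicate 1, 3 without DMSO replicate 3 or JQ1 replicate 3 and 5 without DMSO replicate 2.

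Some genes of innate immunity and inflammatory cell death were lower, though most interferon-stimulated genes did not pass the test. Of 40 tested genes of that list 7 were lower and 1 higher, near the shares of all genes. OAS3, a sensor of double-stranded RNA, had 12.4, 18.8 and 15.4 CPM with DMSO and 1.59, 0.729 and 0.371 CPM with JQ1, whereas its neighbor OAS1 had 0.499, 0.941 and 1.52 CPM with DMSO and 7.56, 8.79 and 6.999 CPM with JQ1. The former fell by 4.1 and the latter rose by 2.97 (adjusted p = 0.0051 and 0.006 by edgeR). In MHC class I presentation 6 of 19 were lower and 3 higher. PSMB8, a subunit of the immunoproteasome, and NLRC5, the activator of class I genes, fell from 11.4 ± 2.57 to 0.762 ± 0.266 CPM and from 4.65 ± 1.38 to 0.386 ± 0.171 CPM (SD, n = 3). Of 16 caspases and gasdermins, the proteases and pore proteins of cell death, 9 were lower and 0 (0 and 0) higher. CASP1, the inflammasome caspase, fell by 4.2, and GSDMC, a pore-forming gasdermin, fell by 2.98. Of 25 NF-kB and cytokine genes 7 were lower and 1 higher, which is near the 20.4% and 7.67% of all genes. LIF, a cytokine of the IL-6 family, CXCL14, a chemokine of epithelium, and ICAM1, a ligand of leukocyte integrins, fell, with log2 fold changes of −3.63, −2.53 and −2.49. NFKBIA, the inhibitor of NF-kB, rose by 1.33 (adjusted p by edgeR at most 0.0073 for these 8 genes). Lower caspases and gasdermins numbered 2 without JQ1 replicate 1, 3 without JQ1 replicate 3, 4 without DMSO replicate 2 and 5 without DMSO replicate 3, class I genes 2 without JQ1 replicate 1 and 3 without DMSO replicate 3 or JQ1 replicate 3, interferon-stimulated genes 3 without JQ1 replicate 1 and 4 without DMSO replicate 3, and NF-kB and cytokine genes 3 without JQ1 replicate 1. With the GC and length correction 14 interferon-stimulated genes were lower and 6 higher.

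At the membrane, some channels fell while transporters and annexins were mixed. Of 24 tested potassium channels 12 were lower and 0 (2 and 0) higher. KCNH2 and KCNS1 of this list fell from 3.49 ± 0.931 to 0.233 ± 0.145 CPM and from 47.01 ± 9.99 to 6.01 ± 1.44 CPM (SD, n = 3). Of 29 channels of calcium release and entry 12 were lower and 1 higher. ITPR3, an IP3 receptor of the ER, had 568, 777 and 534 CPM with DMSO and 71.98, 90.8 and 33.4 CPM with JQ1, and TRPM8, the cold-sensing channel, had 22.8, 20.1 and 20.1 CPM with DMSO and 1.46, 0.162 and 0.206 CPM with JQ1. They fell, with log2 fold changes of −3.26 and −5.07 (adjusted p = 0.0042 and 0.0091 by edgeR). Of 29 ABC transporters 6 were lower and 2 higher, near the shares of all genes, with 2 to 8 lower when 1 library was left out. ABCA13 fell by 4.38 and ABCC5, which exports nucleotides and conjugates, rose by 1.1. Of 8 annexins 2 were lower and 3 higher, and 2 and 1 after the GC and length correction. ANXA2 and ANXA3, calcium-dependent binders of phospholipid, moved apart. ANXA2 rose from 2127 ± 267 to 6125 ± 431 CPM and ANXA3 fell from 44.9 ± 21.6 to 4.26 ± 2.15 CPM. Of 24 tetraspanins 3 were lower and 3 higher, with a median of 0.23, and 5 and 10 after the GC and length correction. Of the lower ones UPK1B and TSPAN18 had log2 fold changes of −4.7 and −2.58. IL7R, a cytokine receptor chain, had 14.7, 3.68 and 10.4 CPM with DMSO and 0.441, 0.0405 and 0.0412 CPM with JQ1, and NPPC, the C-type natriuretic peptide, had 12.9, 16.6 and 15.9 CPM with DMSO and 0.644, 0.243 and 0.329 CPM with JQ1 (adjusted p by edgeR at most 0.01 for the genes without a p of their own). After the GC and length correction 7 potassium channels and 9 calcium channels were lower. Lower potassium channels numbered 5 without DMSO replicate 2 or JQ1 replicate 3, 6 without DMSO replicate 1 or JQ1 replicate 1 and 7 without DMSO replicate 3, and lower calcium channels 4 without JQ1 replicate 1.

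Of 97 long noncoding RNAs tested, 23 were lower (23.7%) and 14 higher (14.4%), against 20.4% and 7.67% of all genes. SLC25A21-AS1 rose from 2.74 ± 0.403 to 13.8 ± 2.25 CPM and FLJ20021 from 1.47 ± 0.309 to 5.03 ± 0.971 CPM, and MIR1915HG, a host transcript of a microRNA, fell from 6.57 ± 1.03 to 0.652 ± 0.494 CPM (SD, n = 3, adjusted p by edgeR at most 0.0095). The counting is not stated to use strand, so reads of an antisense RNA and of its partner gene cannot be told apart.

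Large groups of housekeeping genes were called less often than all genes, or about as often. Of 42 core proteins of the spliceosome 4 were lower and 2 higher, of 37 SR proteins and hnRNPs 5 and 0 (1 and 0), of 29 nuclear pore proteins 5 and 0 (0 and 0), and of 32 subunits of RNA polymerases I and III 4 and 1. Of 34 cytosolic chaperones 1 was lower and 2 higher, of 20 cytosolic aminoacyl-tRNA synthetases 1 and 1, and of 30 proteasome subunits 0 (0 and 0) and 4. These counts stand beside 20.4% lower and 7.67% higher over all genes. Without JQ1 replicate 1 each of these lists had at most 2 lower and 1 higher genes, without JQ1 replicate 2 there were 7 lower spliceosome proteins and 8 higher proteasome subunits, and after the GC and length correction at most 7 in either direction. Of 54 lists with at least 5 tested members and a median log2 fold change beyond 0.5, all 54 kept the sign of their median with RLE factors, upper-quartile factors and library size only. These scalings shift all genes by nearly the same amount, so a median beyond 0.5 could hardly change its sign. After the GC and length correction some medians did change sign, such as that of insulin and IGF signaling, from −0.73 to 0.03.

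**Figure D4:**
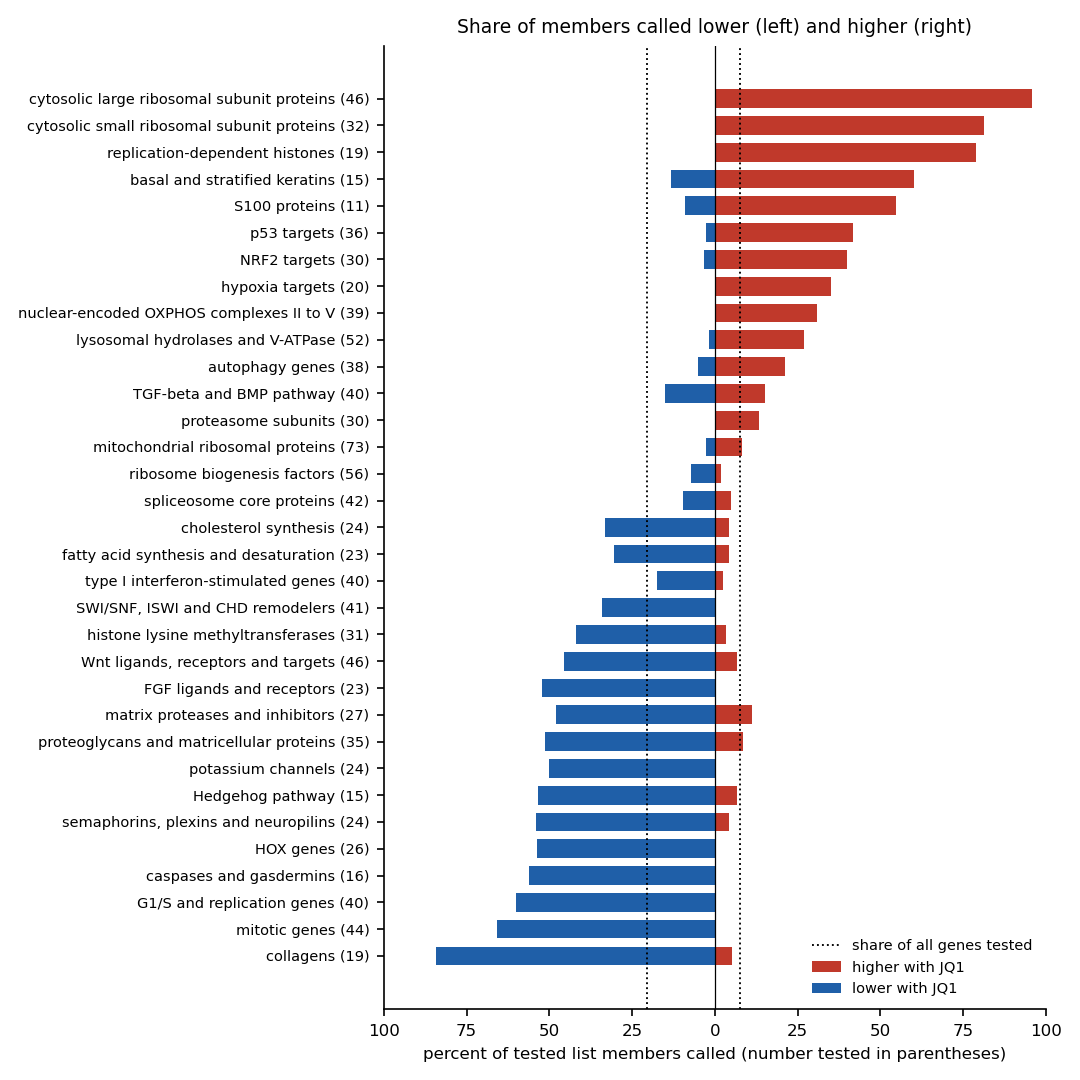
Percent of the tested members of each gene list called lower (bars to the left) and higher (bars to the right) with JQ1 in UPCI-SCC-090, with the number tested in parentheses. Dotted lines mark the shares over all genes tested (20.4% lower, 7.67% higher), and ribosomal proteins, histones and keratins reach far to the right while collagens and mitotic genes reach far to the left.

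The response of UPCI-SCC-090 differed from that of UM-SCC-047, tested as the interaction of line and treatment, for 945 of 14396 genes (6.56%). The log2 fold change was lower in UPCI-SCC-090 for 523 (3.63%) and higher for 422 (2.93%). Several keratins and mucosal genes were among those that differed. In UM-SCC-047 KRT4 and KRT13 fell, to −3.44 and −4.34 on the log2 scale, and in UPCI-SCC-090 they rose, with differences of 9.06 ± 0.53 (adjusted p = 8.6e-06 by edgeR) and 9.01 ± 0.41 (adjusted p = 8.6e-07 by edgeR). LY6D, KRT16, S100A14 and CLDN4 had differences of 7.67, 5.39, 4.9 and 2.45. In the keratin list 9 of the tested members responded higher in UPCI-SCC-090 and 3 lower. ENSG00000117289, at 406 and 1526 CPM on average with DMSO and JQ1 in UM-SCC-047, had a difference of 8.2 ± 0.38 (adjusted p = 8.6e-07 by edgeR). SAMD11, a nuclear protein with a SAM domain, and GPX2, a glutathione peroxidase of epithelium, went up in UPCI-SCC-090 and down in UM-SCC-047, with differences of 7.11 and 6.5. SELENBP1, which oxidizes methanethiol, differed by 6.55 and had too few counts to be tested in UM-SCC-047 alone. Some ribosomal protein genes also responded higher, namely 10 of the large and 9 of the small subunit, of 46 and 32 tested in UPCI-SCC-090, the medians in UM-SCC-047 being 0.55 and 0.44 (adjusted p by edgeR at most 0.026 for all differences named here).

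In the other direction, some matrix, cytoskeletal and lipid genes fell further in UPCI-SCC-090. Of the collagens 7 responded lower, and the median collagen response in UM-SCC-047 was −0.58. COL4A1 and COL4A2 differed by −5.01 ± 0.64 (adjusted p = 0.0011 by edgeR) and −4.46 ± 0.62 (adjusted p = 0.0017 by edgeR), HSPG2 by −4.12 and MYH9 and FLNA by −3.37 and −2.76. FASN and SCD differed by −2.9 and −1.93. NT5E, the ecto-nucleotidase CD73, NPPC and ANXA3 fell in UPCI-SCC-090 and stood at 1.63, 0.14 and 0.71 in UM-SCC-047, with differences of −5.7, −5.24 and −4.05. CRYM, which binds thyroid hormone, differed by −5.04 and was not tested in UM-SCC-047 alone. In the mitotic list 4 of 44 tested genes differed, all with a smaller fall in UPCI-SCC-090, as did 4 of the G1/S list (adjusted p by edgeR at most 0.035 for all differences named here). The number of differing genes was 2601 after the GC and length correction and 1775 without JQ1 replicate 2. It was 463, 540 and 467 without DMSO replicate 1, 2 and 3 of UM-SCC-047, in this order, and 499 without JQ1 replicate 1 of that line.

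**Figure D5:**
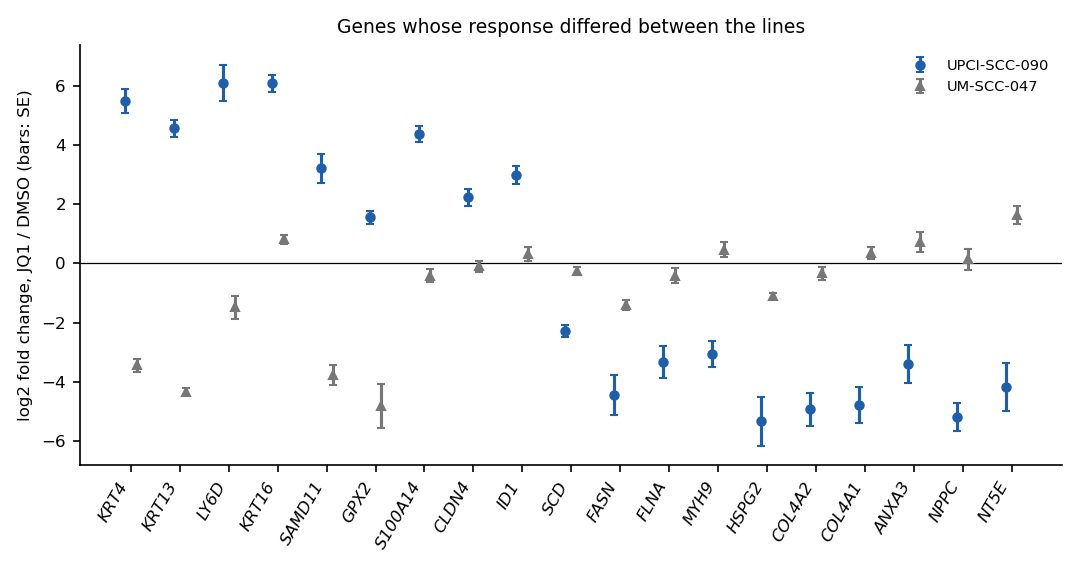
Log2 fold change of JQ1 over DMSO (y axis) with its standard error for genes whose response differed between the lines, as circles for UPCI-SCC-090 and triangles for UM-SCC-047. KRT4 and KRT13 lie at 5.49 and 4.56 in UPCI-SCC-090 and below 0 in UM-SCC-047, and COL4A1 at −4.78 and 0.36.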

How the data were processed

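Total RNA of 2 HPV+ HNSCC lines treated with JQ1 or DMSO was sequenced after ribosomal RNA depletion, with 3 libraries per line and treatment. The authors quantified reads with Salmon 0.8.2, per the submitters' processing notes, which also name DESeq2 1.28.0, and deposited estimated counts per Ensembl gene, not normalized. The Salmon index and genome build do not appear in the sources used here. Every column of the table belongs to a sample of the study. Of 20738 gene IDs, 20015 were named through GENCODE 44 on GRCh37, which also gave gene coordinates, lengths and GC content, and 723 were not. Length and GC content are those of the longest annotated transcript of each gene.

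Estimated counts were rounded and tested in edgeR 4.0.16 (R 4.3.3) with the quasi-likelihood test, TMM scaling, filterByExpr (minimum count 10, minimum total 15) and Benjamini-Hochberg adjustment over all genes at a threshold of 0.05. Standard errors were taken from the fold change and its F statistic. CPM were scaled by TMM. The fit used the 6 libraries of UPCI-SCC-090 with treatment as its term, and the interaction of line and treatment used all 12. Alternatives were RLE, upper-quartile or no scaling, no filter, DESeq2 1.42.0, protein-coding genes only, offsets for GC content, a replicate block, 1 fit over all libraries, and leaving out single libraries or both libraries with the steepest GC trends. Offsets for GC content and length together were chosen after seeing the data. The deviations of same-numbered DMSO and JQ1 libraries correlated at 0.102, 0.823 and 0.244 across genes, so the block pairs them by number. Differently numbered pairs ranged from −0.883 to 0.830, the highest for DMSO replicate 1 with JQ1 replicate 3, so the pairing is weak and rests on no stated design. No 2 libraries of a group agreed within sampling noise. The scripts were tested on simulated data, with fewer changed genes than were called here. For the comparison in UPCI-SCC-090, edgeR recovered 24.5% and 30% of genes changed by −2 and 2 on the log2 scale. Of its calls 4.39% were false. DESeq2 recovered 84% and 70% of such genes, and 28.4% of its calls were false. A gene that did not pass may thus have changed.

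The genes, lists and tests were chosen with earlier results of these data known. Named genes were eligible by rank: the 15 steepest rises and falls with at least 5 CPM and no overlap, the 10 largest CPM differences per direction, per list up to 4 called members per direction and up to 3 members that did not pass the test, and the 10 largest differences between lines per direction. Of these the text names part, favoring genes that kept their call with any library left out, chosen after their values were seen. Promoters are from RefSeq on GRCh38.p14.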

Additional observations from a re-analysis of the deposited data

Results flagged for a closer look

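The results below are those where the log2 fold change in UPCI-SCC-090 differed from that in UM-SCC-047 by the interaction of line and treatment (adjusted p under 0.05 by edgeR). The difference passed for 945 genes, including those given here with the fold change in UPCI-SCC-090 minus that in UM-SCC-047. A positive value is a higher log2 fold change in UPCI-SCC-090. Groups of 3 libraries are too small to search for single libraries far from the others.

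Among the steepest rises it was 10.37 for CRYBA2, 8.2 for ENSG00000117289 and 3.66 for ARRDC4. For keratins and mucosal genes the difference was 9.06 for KRT4, 9.01 for KRT13, 8.21 for S100A9, 7.67 for LY6D, 5.39 for KRT16, 4.9 for S100A14, 4.82 for IVL, 4.55 for SLPI, 4.29 for S100A16, 4.15 for MAL, 3.13 for LYPD3, 2.85 for CALML3, 2.45 for CLDN4, 2.04 for KRT6A, 1.96 for KRT5, 1.83 for S100A13 and 1.31 for CD59. It was negative at −2.37 for KRT17 and −2.22 for EVPL. Among translation genes it was 1.67 for RPS4X, 1.58 for RPL11, 1.52 for RPS6 and 1.0 for EIF3L. Within the histones it was 1.57 for MACROH2A2 and 1.16 for H3-3B. For genes of stress, energy and lipid the difference was 2.87 for ANGPTL4, 2.06 for CDKN2B, 1.95 for EPAS1, 1.76 for SLC2A1, 1.61 for ALDOC, 1.22 for BECN1, 1.19 for NDUFB3 and 1.13 for GABARAPL2. It was negative at −4.41 for AKR1C3, −2.9 for FASN, −2.39 for SREBF1, −1.93 for SCD, −1.74 for TM7SF2 and −1.55 for FADS2. In the signaling genes that rose it was 5.38 for HES5, 4.44 for FOS, 2.78 for ID1, 2.76 for GADD45B, 2.32 for ID2, 2.16 for IER5, 2.15 for HES2 and 1.73 for FSTL3. For matrix and adhesion genes the difference was 2.82 for PLAU and 2.2 for TGFBI. It was negative at −5.01 for COL4A1, −4.46 for COL4A2, −4.12 for HSPG2, −3.96 for ADAM12, −3.79 for PLEC, −3.0 for FKBP10, −2.11 for TNXB, −2.01 for LOXL3 and −1.7 for ADAMTS1.

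In the cytoskeleton it was −3.37 for MYH9, −2.76 for FLNA and −2.36 for MYO1C. In developmental signaling it was −3.56 for IGFBP7, −3.54 for PLXND1, −2.8 for NOTUM, −1.76 for NRP2 and −1.75 for IRS1. Among transcription and chromatin genes it was −4.05 for HDAC9. In immunity and cell death the difference was 5.34 for OAS1 and 2.61 for GSDMC. It was negative at −3.53 for PSMB8, −3.23 for CXCL14, −3.2 for CASP1, −2.6 for LIF and −2.59 for NLRC5. At the membrane it was −5.24 for NPPC, −4.05 for ANXA3 and −3.81 for ABCA13. For noncoding RNAs the difference was 2.33 for SLC25A21-AS1. It was negative at −2.37 for MIR1915HG. For the genes chosen by this difference itself the difference was 7.11 for SAMD11, 6.55 for SELENBP1 and 6.5 for GPX2. It was negative at −5.7 for NT5E and −5.04 for CRYM. Among the genes of other lists it was −2.45 for TUBB2B. After the GC and length correction the differences of GABARAPL2, NDUFB3 and TNXB did not pass (adjusted p = 0.4, 0.41 and 0.1 by edgeR).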

How the results depend on the processing

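The number of genes lower with JQ1 was 1755 with RLE size factors, against 2680, and 1009 to 2801 with 1 library left out. The number of higher genes was 635 with library size only, 3259 after the GC correction, 2929 after the GC and length correction, 1915 in 1 fit over all 12 libraries, and 371 to 1303 with 1 library left out, against 1009. Genes whose response differed between the lines numbered 2508 after the GC correction, 2601 after the GC and length correction, and 463 to 1775 with 1 library left out, against 945. With the replicate block, which pairs libraries of the same number, 3141 genes were lower, 1361 higher and 1103 differed between the lines, and with the block and the GC correction 3277 were higher and 2142 differed. The alternatives were compared for 183 named genes, which leave out part of the cell type markers. Among these the block changed the call of BRD2, which passed with it at 0.67, and no other. BRD2 also passed after the GC correction, after the GC and length correction and without both libraries of the steepest GC trends. Counting BRD2, 3 genes that did not pass the test passed after the GC correction in the same direction. After the GC and length correction 2 did so. KRT17, which did not pass the test at −0.14, stood at 0.55 after the GC correction and 0.54 with the block as well, past the threshold in both. COX6C and NDUFB3 lost their call after the GC and length correction, and the cause was not tested. Of 176 called genes named in the text, 174 kept their call and direction in every alternative that tested them, at most 18. This reflects that they were chosen for keeping it with single libraries left out. The fit of protein-coding genes only held 179 of the 183 genes compared. Without both libraries of the steepest GC trends 2194 genes were lower and 871 higher. The 3 libraries per group limit the precision, with a biological coefficient of variation of 46.95%, and the 7588 genes with too few counts to be tested are not described.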

Other observations

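Some genes of meiosis, which many carcinomas express out of place, fell. Of 16 tested cancer-testis and meiotic genes 6 were lower and 0 (0 and 0) higher, with the numbers at an unadjusted p under 0.05 by edgeR and by DESeq2 in parentheses, and 20.4% of all genes were lower. DMC1, the recombinase of meiosis, had 1.498, 0.599 and 0.936 CPM with DMSO and 0.169, 0.122 and 0.124 CPM with JQ1. MEI1, a factor of meiotic breaks, and SYCE2, of the synaptonemal complex, fell from 24.2 ± 5.36 to 4.91 ± 0.898 CPM and from 3.3 ± 0.393 to 0.692 ± 0.207 CPM (SD, n = 3). The log2 fold changes of the 3 genes were −2.82, −2.3 and −2.24 (adjusted p by edgeR at most 0.0072). The lower genes of the list numbered 3 without JQ1 replicate 1, and 11 after the GC and length correction.

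Single genes fell in lists that were mixed. Of 38 tested genes of fatty acid oxidation and peroxisomes 5 were lower and 6 higher, with a median of 0.52, and of 32 Mediator subunits 6 and 5, with a median of 0.28. Of 16 tubulins 2 were lower and 0 (3 and 1) higher, with a median of 0.34. Without JQ1 replicate 1 these lists had at most 2 lower genes and lost their higher ones, and without DMSO replicate 1 the lower tubulins numbered 4. Higher genes after the GC and length correction numbered 13, 6 and 7. The members named here are among those that fell. CPT1A, which carries fatty acids into mitochondria, had 69.9, 75.5 and 41.4 CPM with DMSO and 15.6, 14.5 and 10.5 CPM with JQ1. PEX26, a peroxisome assembly factor, fell from 45.8 ± 7.83 to 7.16 ± 2.42 CPM (SD, n = 3), and MED18, a subunit of the Mediator complex that links factors to RNA polymerase II, from 4.102 ± 1.15 to 0.326 ± 0.0798 CPM. TUBB2B, a neuronal beta tubulin, had 16.7, 31.1 and 25.3 CPM with DMSO and 5.49, 4.66 and 3.91 CPM with JQ1, with no overlap between the groups. The log2 fold changes of these genes in the order given were −2.2, −2.68, −3.63 and −2.38 (adjusted p by edgeR at most 0.0058).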
